A study of Homo sapiens with 7 samples.

Results

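Krüppel-like factors are a family of transcription factors that share zinc fingers at the carboxyl end of the protein. 10 of them, KLF3 to KLF12, were followed through SKOV3 cells in which either of the CtBP co-repressors had been targeted. They were selected by gene name, with results of these arrays already known. A gene was read from transcript clusters, the array's units of measurement, whose platform annotation gives its symbol alone, and the brightest cluster by its mean over all arrays was to be taken where there were several. The mean signal is thus the measured value from which a cluster would be chosen, but each measured member had 1 such cluster and it decided nothing here. By this rule 9 of the 10 members were measured, among 17958 genes in all. KLF3 was not, since the cluster that carries its symbol carries that of a second gene as well, and no value is given for it.

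SKOV3 is a human ovarian carcinoma line. All cells carried a lentiviral construct and were kept in medium with puromycin, and the labels say that knockdown was checked by western blot. The arrays came from 3 clones labelled CtBP1 knockdown, 2 clones labelled CtBP2 knockdown and 2 scramble control clones, with 1 array for each clone, so that a clone's own history and its knockdown are not separated. The platform was the Affymetrix Human Gene 1.1 ST array, and the values are log2 signals, on which a difference of 1 is a doubling. Nothing in the labels says that the cultures were independent, so p-values measure only how far these arrays spread, and part of that may be technical.

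The zinc fingers of these proteins bind CACCC elements and GC-rich boxes in promoters and enhancers, and the rest of the protein decides whether a gene is repressed or activated. KLF3, KLF8 and KLF12 carry a short motif that binds CtBP and act mainly as repressors. KLF9, KLF10 and KLF11 bring in the SIN3 co-repressor instead, while KLF4, KLF5, KLF6 and KLF7 act largely as activators. CtBP1 and CtBP2 do not bind DNA themselves and reach promoters through such partners, together with histone deacetylases and demethylases.

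Several facts of the whole series bear on the members. Scramble control 1 stood apart, with correlations of 0.926 to 0.941 to the other arrays over all genes, while the remaining 6 arrays correlated with each other at 0.971 to 0.993. Its interquartile range over all genes was 2.2 log2 units, against 2.85 to 3.15 on the other 6, so the deposited arrays do not share 1 distribution. With only 2 controls, many differences from scramble depend on which control is kept. Differences given "by control" are those without scramble control 1 and then those without scramble control 2. CTBP2 itself had log2 signals of 4.64 and 4.22 after CtBP2 knockdown, against 5.70 and 6.14 in scramble controls, a 2.81-fold lower mean (limma, adjusted p = 0.18). CTBP1 had signals of 5.11, 6.13 and 6.13 on the arrays labelled CtBP1 knockdown, against 5.69 and 6.37 in scramble clones, so these groups overlapped and the label is used only as a label. Of 10 markers of this carcinoma line, 9 lay above the array's median on every array, ERBB2 and the keratins KRT8 and KRT18 among them, and MUC16 did so on 6 of the 7. Of 8 markers of leukocytes, endothelium and fibroblasts, 7 lay below that median on every array, and COL1A1 lay above it on 1.

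Annotated starts from the RefSeq promoter table (GRCh38.p14) were used for 8 of the 10 members, 19 in all, and the 250 bases before each were searched. KLF3 and KLF10 were left out of this search, so nothing is said of their promoters. The motifs were CACCC, read as GGGTG on the other strand, and the GC box GGGCGG, read as CCGCCC, and matches of both may share bases. Of all 35116 windows of this length in the table, 54.7% held at least 1 CACCC and 42.6% at least 1 GGGCGG. A window is printed for KLF7, the member that differed most, and for KLF8 and KLF12, the measured members that recruit CtBP. The windows were picked after the array values had been seen: for each gene the start with most CACCC matches was taken among those with no other start of the gene within 1000 bases upstream, and capitals mark CACCC on either strand.
KLF7, chr2:207167247-207167496, minus strand: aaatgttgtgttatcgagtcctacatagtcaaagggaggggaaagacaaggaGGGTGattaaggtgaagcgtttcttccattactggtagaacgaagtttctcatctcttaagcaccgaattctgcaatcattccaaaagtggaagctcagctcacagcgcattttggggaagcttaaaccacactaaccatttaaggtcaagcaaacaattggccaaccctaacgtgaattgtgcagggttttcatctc
KLF8, chrX:56232106-56232355, plus strand: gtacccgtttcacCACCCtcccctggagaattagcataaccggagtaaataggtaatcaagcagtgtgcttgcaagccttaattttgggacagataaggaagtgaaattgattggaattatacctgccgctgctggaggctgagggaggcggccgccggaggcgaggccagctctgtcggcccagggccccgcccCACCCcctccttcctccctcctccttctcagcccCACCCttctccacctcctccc
KLF12, chr13:74134405-74134654, minus strand: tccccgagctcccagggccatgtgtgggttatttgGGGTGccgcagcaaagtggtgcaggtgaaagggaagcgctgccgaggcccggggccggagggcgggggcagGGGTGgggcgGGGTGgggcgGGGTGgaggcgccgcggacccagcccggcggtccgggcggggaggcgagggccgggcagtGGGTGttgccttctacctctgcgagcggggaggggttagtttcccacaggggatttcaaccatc
The KLF12 window held 5 matches to CACCC and 4 to the GC box, and 72.0% of its bases were G or C. Of all windows, 2.9% held 4 or more CACCC and 7.6% held 4 or more GC boxes. These shares do not measure how rare the KLF12 window is, since it was picked for its CACCC matches. The windows at the other KLF12 starts held 5, 0 and 0 CACCC. The KLF8 window held 3, the nearest beginning 21 bases before the start, and the KLF7 window held 1, 198 bases before it. At the other KLF8 starts the windows held 1, 2 and 0 CACCC. Of the bases of the KLF7 window 43.2% were G or C. Other KLF7 starts differed from it. The window at chr2:207166857-207167106 held 0 CACCC and 4 GC boxes, with 72.0% G or C, and that at chr2:207165949-207166198 held 2 CACCC. These matches describe letters and not binding, and the starts used in SKOV3 cells are not known from these arrays.

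Among the factors that recruit CtBP, KLF12 was bright enough to follow. KLF12, first described as a repressor of the gene for AP-2alpha, had log2 signals of 5.75, 5.27 and 5.59 in clones labelled CtBP1 knockdown, 4.54 and 5.12 on the CtBP2 knockdown arrays, and 5.17 and 5.89 on the scramble arrays. Both CtBP2 knockdown arrays were the lowest of the 7, though the second lay only just under scramble control 1. The other groups overlapped. The arrays read bulk RNA, so fewer cells with a transcript and less of it per cell cannot be told apart. KLF8, a repressor of the E-cadherin gene CDH1, had 2.84, 1.92 and 1.96 in clones labelled CtBP1 knockdown, 1.86 and 2.04 on the CtBP2 knockdown arrays, and 1.83 and 1.87 on the scramble arrays. A single clone, CtBP1 knockdown 1, stood above the other 6, which lay close together. This clone also had the lowest CTBP1 signal, and whether the pair of values are related was not tested. KLF8 was dim, below the median of all genes on every array.

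Of the activators, KLF7 gave the clearest pattern. KLF7, a factor of neuronal development that also restrains fat cell differentiation, had log2 signals of 7.55, 7.33 and 7.14 in clones labelled CtBP1 knockdown, 6.62 and 6.58 on the CtBP2 knockdown arrays, and 7.83 and 7.81 on the scramble arrays. No group overlapped another: scramble was highest, the arrays labelled CtBP1 knockdown lay between, and CtBP2 knockdown was lowest. The mean was 7.34 ± 0.21 with the CtBP1 knockdown label (SD, n = 3), 6.60 ± 0.02 with CtBP2 knockdown (SD, n = 2) and 7.82 ± 0.01 in scramble controls (SD, n = 2). KLF6, its closest relative and a tumour suppressor in several carcinomas, had 4.95, 5.56 and 5.24 in clones labelled CtBP1 knockdown, 5.39 and 5.28 on the CtBP2 knockdown arrays, and 4.87 and 5.22 on the scramble arrays. Here CtBP2 knockdown lay above both controls by a narrow margin, and the arrays labelled CtBP1 knockdown overlapped both other groups.

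KLF5, which drives the growth of epithelial cells, had 7.56, 7.32 and 7.81 in clones labelled CtBP1 knockdown, 7.26 and 7.08 on the CtBP2 knockdown arrays, and 7.52 and 7.28 on the scramble arrays. CtBP2 knockdown was lowest, by a margin of 0.02 to scramble control 2. KLF4, a factor of epithelial differentiation and of reprogramming, had 1.96, 1.73 and 1.96 in clones labelled CtBP1 knockdown, 1.96 and 2.48 on the CtBP2 knockdown arrays, and 2.06 and 1.79 on the scramble arrays. It was below the median of all genes on all 7 arrays, its groups overlapped, and 3 arrays (CtBP1 knockdown 1 and 3 and CtBP2 knockdown 1) carried the identical value.

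Of the SIN3-recruiting members KLF10 and KLF11 were well detected and KLF9 was dim. KLF10, an early target of TGF-beta signalling, had 5.69, 5.55 and 5.51 in clones labelled CtBP1 knockdown, 6.06 and 5.92 on the CtBP2 knockdown arrays, and 5.78 and 5.57 on the scramble arrays. CtBP2 knockdown was above every other array. KLF11, a second TGF-beta-inducible member that regulates insulin and monoamine oxidase genes, had 5.54, 5.89 and 6.21 in clones labelled CtBP1 knockdown, 5.82 and 5.85 on the CtBP2 knockdown arrays, and 5.31 and 5.73 on the scramble arrays. The CtBP2 knockdown pair lay just above both controls, and the arrays labelled CtBP1 knockdown overlapped them. KLF9, which is induced by glucocorticoids and thyroid hormone, lay between 2.28 and 2.32 on all 5 knockdown arrays, against 2.39 and 1.92 in scramble clones. The controls enclosed all the knockdown arrays, and KLF9 too was below the median of all genes throughout.

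**Figure D1:**
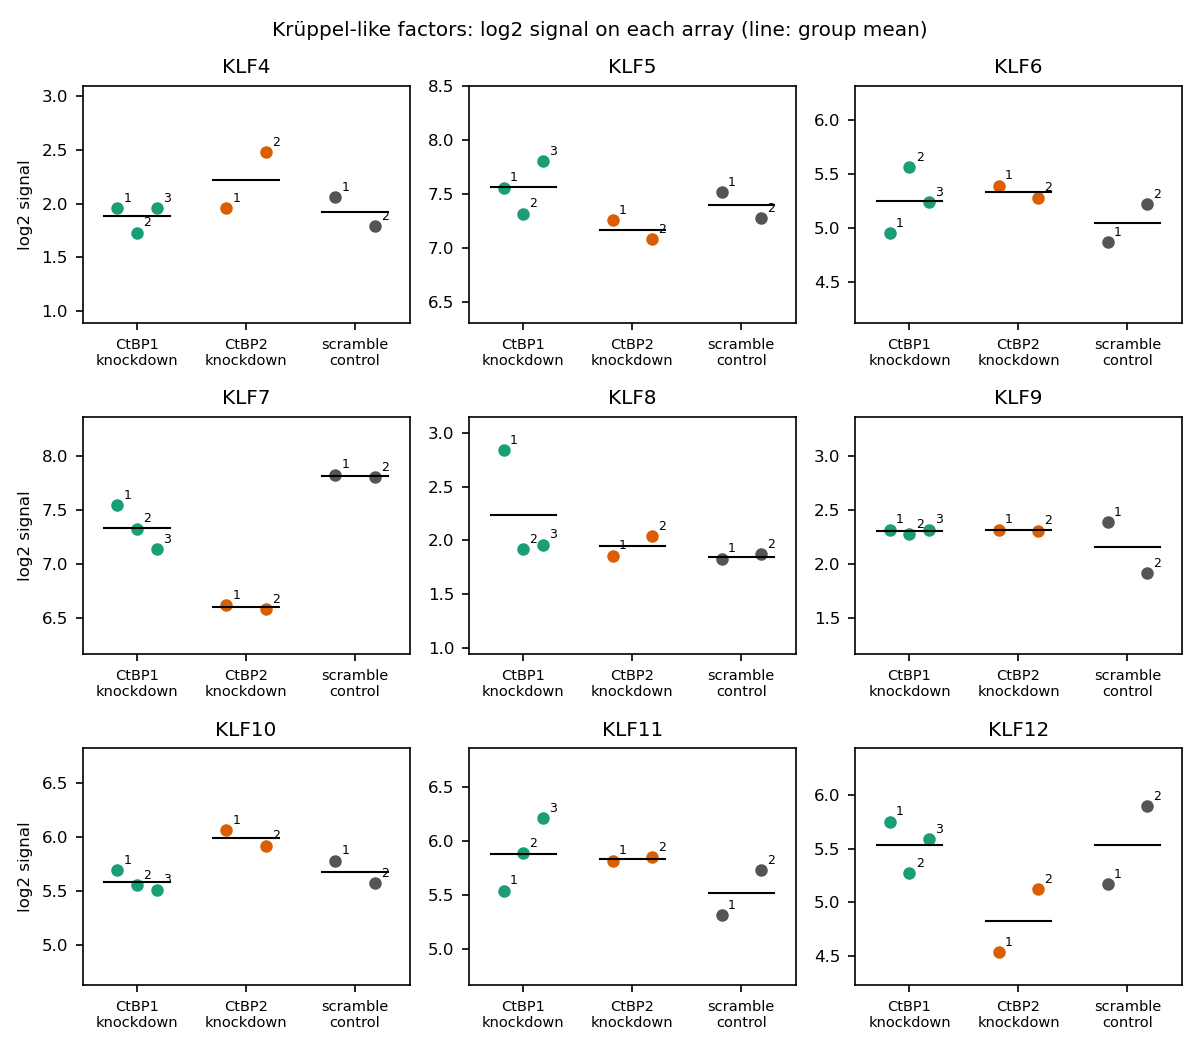
Log2 signal (vertical axis, each panel spanning the same 2.2 log2 units) of the 9 measured Krüppel-like factors on each array, by group. Points are arrays numbered by clone, and lines are group means. KLF7 is the panel in which all groups are apart, from 6.58 to 7.83, and KLF8 shows 1 clone at 2.84 above 6 arrays between 1.83 and 2.04.

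The CtBP2 knockdown clones were set against the scramble clones. KLF7 was 2.33-fold lower on the CtBP2 knockdown arrays, at a log2 difference of -1.22 ± 0.16 (SE of the limma fit, 2 arrays against 2). KLF12 differed by -0.70 ± 0.32 and KLF5 by -0.23 ± 0.20. These were the 3 members with a negative difference, and they include both activators and a partner of CtBP. KLF10 and KLF11 each differed by 0.32, with SE of 0.14 and 0.25, KLF6 by 0.29 ± 0.23 and KLF4 by 0.29 ± 0.21. KLF9 differed by 0.16 ± 0.17 and KLF8 by 0.10 ± 0.32.

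None of the 9 members passed an adjusted p of 0.05 in this comparison, with the p-value adjusted by Benjamini-Hochberg over all genes in limma, where 0.00557% of all genes were called. KLF7 came nearest, at an adjusted p of 0.18 (0.0181 to 0.93 over the alternatives tried), and was the 1 member with an unadjusted p under 0.05, against 10.2% of all genes. A larger difference in either direction was seen for 2.71% of genes. The remaining members had adjusted p from 0.505 (KLF10) to 0.906 (KLF8). Groups that did not overlap were found for 6 of the 9 members, and the same held for 41% of all genes. These were 3 higher (KLF6, KLF10 and KLF11), against 19.3% of all genes, and 3 lower (KLF5, KLF7 and KLF12), against 21.7%. The median difference of the members was 0.16, and that of all genes was -0.02.

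How far these values rest on a single control differed between members. KLF7 had nearly the same signal on both controls (0.02 apart), and leaving out scramble control 1 gave a difference of -1.21, and leaving out scramble control 2 gave -1.23. The last of these came from a fit whose only control is the outlying scramble control 1, assumed to vary as the knockdown clones do. The KLF12 value depended on the control kept, since its controls were 0.72 apart. It was -1.06 without scramble control 1 and -0.34 without scramble control 2, and -0.41 without CtBP2 knockdown 1. KLF11 was 0.11 and 0.53, KLF6 0.11 and 0.46, and KLF5 -0.11 and -0.34, without scramble controls 1 and 2 in turn. KLF4 rested on CtBP2 knockdown 2, at 0.035 without that array, and was 0.43 and 0.16 by control. KLF5 was -0.13 without CtBP2 knockdown 2, and KLF8 lay between 0.007 and 0.185 over all arrays left out. KLF10 was 0.43 and 0.21 by control, and KLF9 changed sign, at 0.40 and -0.07. KLF6, KLF10 and KLF11 also came closer to 0 under another scaling. After a further quantile normalization KLF10, KLF11 and KLF6 differed by 0.10, 0.09 and 0.06, while KLF7 and KLF12 differed by -1.38 and -0.90.

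**Figure D2:**
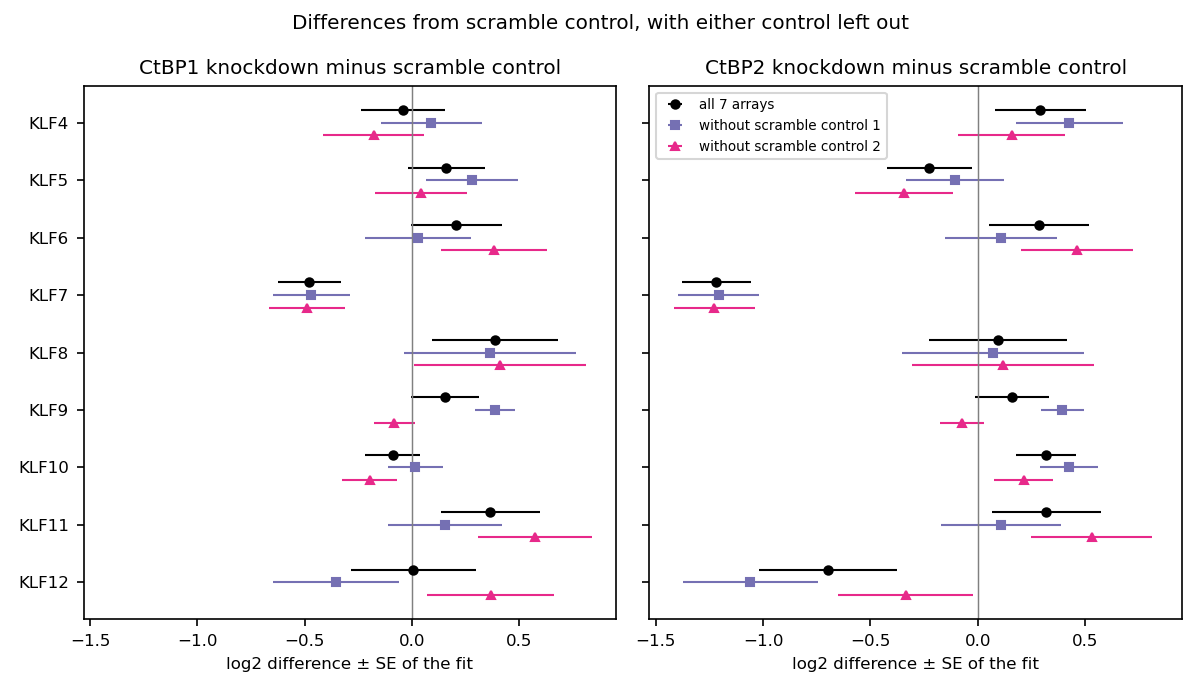
Log2 difference from scramble control (horizontal axis) of each member for the arrays labelled CtBP1 knockdown (left) and for CtBP2 knockdown (right), with bars for the SE of the fit. Circles use all 7 arrays, squares leave out scramble control 1 and triangles scramble control 2. KLF7 keeps its place in each panel, near -0.48 on the left and -1.22 on the right, while KLF12 moves between -0.36 and 0.37 on the left and between -1.06 and -0.34 on the right.

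The arrays labelled CtBP1 knockdown were set against the same scramble arrays, so both comparisons share their controls. KLF7 was 1.39-fold lower, at a log2 difference of -0.48 ± 0.15 (SE, 3 arrays against 2). KLF8 differed by 0.39 ± 0.29 and KLF11 by 0.36 ± 0.23. KLF6 differed by 0.21 ± 0.21, KLF5 by 0.16 ± 0.18 and KLF9 by 0.15 ± 0.16. KLF10, KLF4 and KLF12 lay near 0, at -0.09 ± 0.13, -0.04 ± 0.20 and 0.01 ± 0.29.

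No member passed the threshold, nor did any gene (0% of all genes called by limma). Adjusted p ran from 0.734, for KLF7 and KLF11, to 0.997, for KLF12. KLF7 alone had an unadjusted p under 0.05, which 4.79% of all genes had. Groups did not overlap for 2 of the 9 members, against 14.4% of all genes. KLF8 was the 1 on the higher side (6.76% of genes) and KLF7 the 1 on the lower side (7.59% of genes). The KLF8 difference rested on CtBP1 knockdown 1 and was 0.09 without that array. KLF11 was 0.15 without scramble control 1 and 0.57 without scramble control 2, and KLF6 was 0.03 and 0.38. KLF12 changed sign, at -0.36 without scramble control 1 and 0.37 without scramble control 2. KLF5 was 0.28 and 0.042 by control, and 0.038 without CtBP1 knockdown 3. KLF4 (0.09 and -0.18), KLF9 (0.39 and -0.08) and KLF10 (0.016 and -0.20) also changed sign by control. KLF7 stayed between -0.58 and -0.38 when each array was left out in turn.

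**Figure D3:**
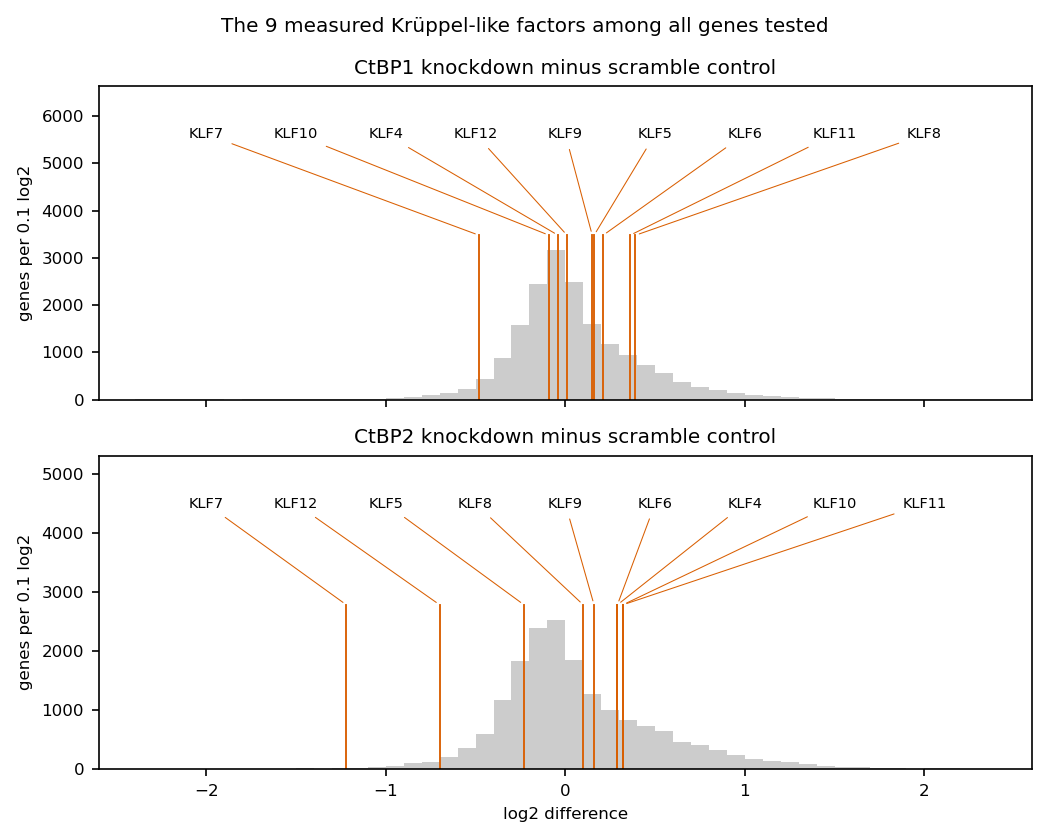
Number of genes (vertical axis) in bins of 0.1 of the log2 difference from scramble control (horizontal axis), for the arrays labelled CtBP1 knockdown above and for CtBP2 knockdown below. Vertical lines mark the 9 measured members. KLF7 at -1.22 and KLF12 at -0.70 lie in the lower tail of the lower panel, and the other 7 members lie within the body of both distributions.

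Setting the arrays labelled CtBP1 knockdown directly against CtBP2 knockdown leaves out the scramble arrays, except for their part in the spread. KLF7 was 1.67-fold higher on the arrays labelled CtBP1 knockdown, at a difference of 0.74 ± 0.15 log2 units (SE; 3 clones and 2). KLF12 was higher by 0.70 ± 0.29 and KLF5 by 0.39 ± 0.18. KLF10 was lower, at -0.41 ± 0.13, and KLF4 differed by -0.34 ± 0.20. The other 4 members differed by -0.08 to 0.29. KLF12 was 0.41 without CtBP2 knockdown 1, and KLF4 was -0.08 without CtBP2 knockdown 2 and -0.60 without CtBP2 knockdown 1. KLF8 was -0.008 without CtBP1 knockdown 1. These members thus moved with a single array, while KLF7 lay between 0.63 and 0.84 over all arrays left out. Again limma called no member and 0% of genes. The lowest adjusted p was 0.284, for KLF7, followed by 0.497 for KLF10 and 0.658 for KLF12, and 2 members (KLF7 and KLF10) had an unadjusted p under 0.05, against 7.77% of genes. Groups did not overlap for 4 members, 3 higher (KLF5, KLF7 and KLF12; 16.2% of all genes) and 1 lower (KLF10; 15.8%), against 32% of all genes in either direction.

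Correlations between the members over the 7 arrays had both signs. Over all pairs of measured members, Pearson's r ran from -0.81 to 0.70, with KLF10 and KLF12 the most opposed and KLF6 and KLF11 the most alike. KLF7 and KLF12 had an r of 0.67. These are descriptions over 7 arrays, which share their groups and the outlying control. The genes most like KLF7 over the 7 arrays were ARPC2, a subunit of the actin-nucleating Arp2/3 complex (r = 0.973, rho = 0.964), the pseudogene CLCA3P (r = 0.968, rho = 0.991) and MSTN, which encodes myostatin (r = 0.966, rho = 0.901). Their differences for CtBP2 knockdown against scramble were smaller, at -0.46, -0.29 and -0.14, and CLCA3P and MSTN were dim, with signals of 1.80 and 1.54 at most. The genes most like KLF12 were AK9, an adenylate kinase (r = 0.993, rho = 1), CROT, a peroxisomal carnitine acyltransferase (r = 0.973, rho = 0.964), and TMEM179B (r = 0.965, rho = 0.964).

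The genes most like KLF8 were EDN2, which encodes endothelin 2 (r = 0.986, rho = 0.631), the receptor phosphatase PTPRD (r = 0.984, rho = 0.536) and GIN1 (r = 0.98, rho = 0.739). EDN2 had a signal of 4.81 on CtBP1 knockdown 1, against 3.19 to 3.47 on the other 6 arrays. PTPRD had 4.0 on that array, against 1.98 to 2.39 elsewhere. These likenesses thus rest on 1 clone, and the rank correlations are correspondingly lower. For comparison, 96 genes had an r over 0.9 with KLF7, 104 with KLF8 and 50 with KLF12.

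The rest of the family and the related SP factors, which bind the same GC boxes, were looked up from lists of known genes. Of the other 8 Krüppel-like factors 7 were measured, and of 9 SP factors all 9, and none passed the test in any comparison. For CtBP2 knockdown, 4 of the 7 Krüppel-like factors lay below both controls (KLF1, KLF13, KLF14 and KLF15) and 0 above, with a median difference of -0.16, where 21.7% of all genes lay below both controls and the median of all genes was -0.02. The largest difference of the 4 was that of KLF13, a factor of lymphocyte gene expression. KLF13 had signals of 4.26 and 4.43 on CtBP2 knockdown arrays against 4.94 and 4.65 on scramble arrays. Its difference was -0.45 ± 0.24 (SE; limma, adjusted p = 0.534), and -0.31 without scramble control 1. KLF15 was dim, at 1.94 or less on every array. The higher CtBP2 knockdown signal lay just under the lower control for KLF15 (1.84 against 1.85) and KLF1 (3.03 against 3.07). KLF14 had 3.22 and 3.29 against 3.40 on both controls. KLF16 was the 1 of the 7 above both controls on the arrays labelled CtBP1 knockdown, where 6.76% of all genes were, with 5.57, 5.54 and 5.76 against 5.18 and 5.35, a difference of 0.36 ± 0.12 (SE; limma, adjusted p = 0.734). It had 5.35 on both CtBP2 knockdown arrays, at the level of the higher control.

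The SP factors had median differences of -0.13 for the arrays labelled CtBP1 knockdown and -0.03 for CtBP2 knockdown. SP8, a factor of limb and brain development, was the 1 SP gene below both controls in each, with 2.45, 2.28 and 2.18 on the arrays labelled CtBP1 knockdown. It had 2.26 and 2.38 on CtBP2 knockdown arrays, and 2.61 and 2.49 on scramble arrays. SP8 was dim, at 2.61 or less on every array. The margin to scramble control 2 was small, and 7.59% of all genes lay below both controls for the arrays labelled CtBP1 knockdown and 21.7% for CtBP2 knockdown. Where 1 gene has a pair of differences here and in what follows, the first is that of the arrays labelled CtBP1 knockdown and the second that of CtBP2 knockdown, each from scramble. SP7, the osteoblast factor, differed by -0.73 ± 0.41 for CtBP2 knockdown, and by -0.21 and -1.26 by control. SP2 overlapped the controls in both comparisons (0.31 ± 0.15 and -0.03 ± 0.17), at 0.19 and 0.42 by control in the first and -0.15 and 0.08 in the second. SP4 (-0.28 ± 0.17 and -0.26 ± 0.19) rested on scramble control 2, where its signal was 4.47 against 3.89 to 3.94 on the other 6 arrays. By control it was -0.56 and -0.01 in the first comparison and -0.53 and 0.02 in the second.

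**Figure D4:**
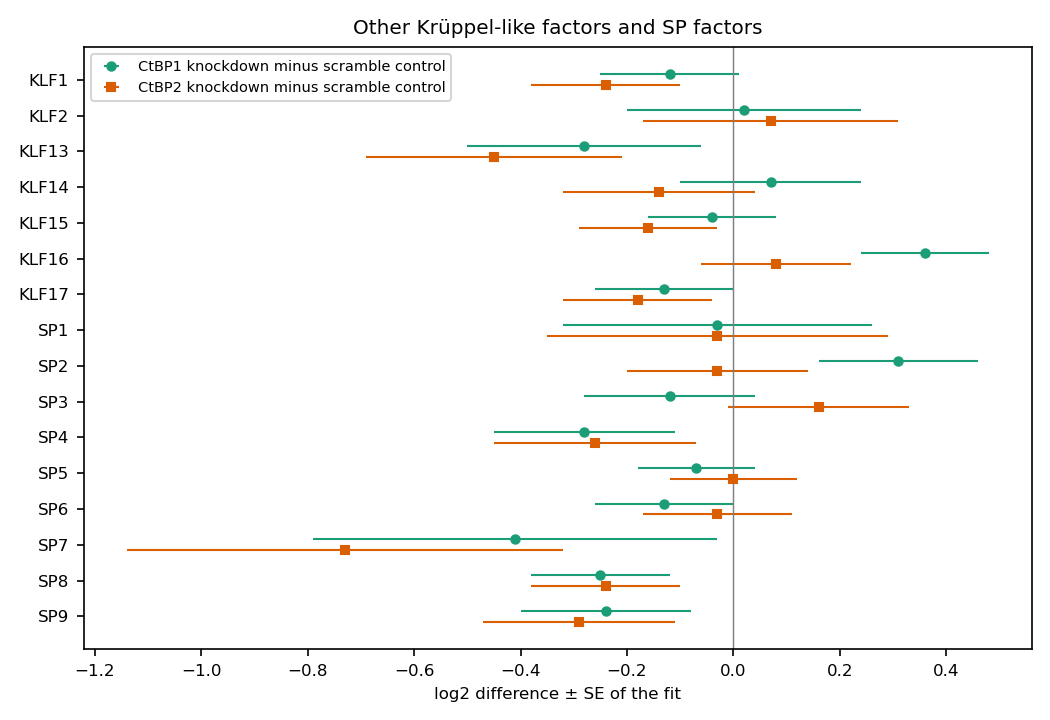
Log2 difference from scramble control (horizontal axis) of 7 other Krüppel-like factors and 9 SP factors, for the arrays labelled CtBP1 knockdown (circles) and for CtBP2 knockdown (squares), with bars for the SE of the fit. Most values lie within 0.3 of 0, KLF16 stands at 0.36 for the arrays labelled CtBP1 knockdown, and SP7 has the lowest value, -0.73, with the widest bar.

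The co-repressors that these factors bring in were measured for 15 of 16 listed genes of the CtBP complex and 10 of 11 of the SIN3 complex, and none passed. For CtBP2 knockdown the CtBP complex list had 3 genes above and 3 below both controls, of 15, against 19.3% and 21.7% of all genes. Its median difference was 0.14. CTBP2, the gene targeted in these clones, was on this list and was 1 of the 3 below. For the arrays labelled CtBP1 knockdown the list had 1 above, CTBP2 itself, and 1 below. The shares of all genes there were 6.76% above and 7.59% below, and the median of the list was 0.11. The histone deacetylase HDAC2 was among the higher, with 7.30 and 7.24 on CtBP2 knockdown arrays against 6.41 and 7.0 on scramble arrays, a difference of 0.57 ± 0.20 that was 0.27 and 0.86 by control. HDAC1 differed by 0.90 ± 0.43, and by 0.22 and 1.59 by control. L3MBTL3, a reader of methylated lysine, was among the lower, with 3.92 and 3.87 against 4.10 and 4.59, a difference of -0.45 ± 0.18 (-0.70 and -0.20 by control). In the SIN3 list 1 of the 10 genes, SAP130, was above both controls on the arrays labelled CtBP1 knockdown and 0 were below. SAP130 had 7.10, 6.75 and 7.11 against 6.03 and 6.58, a difference of 0.68 ± 0.21 that was 0.40 and 0.96 by control. SAP30 differed by 1.13 ± 0.51 for CtBP2 knockdown, and by 0.35 and 1.91 by control. SIN3B had signals of 3.35 and 4.34 on the controls and was above both in neither comparison, as was ING2, a reader of methylated histone H3 (0.27 ± 0.17 for the arrays labelled CtBP1 knockdown).

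Genes described elsewhere as targets of the members were read in the same way. None of 9 genes listed for KLF3, KLF8 and KLF12 passed. Their median differences were -0.04 for the arrays labelled CtBP1 knockdown and 0.14 for CtBP2 knockdown. For CtBP2 knockdown 2 of the 9 were above and 2 below both controls, against 19.3% and 21.7% of all genes. For the arrays labelled CtBP1 knockdown 1 was above and 1 below, against 6.76% and 7.59% of all genes. The cyclin gene CCND1, which KLF8 and KLF5 are reported to activate, had signals of 7.50 and 7.44 on CtBP2 knockdown arrays against 6.67 and 6.28 on scramble arrays, a difference of 0.99 ± 0.31 (SE; limma, adjusted p = 0.42). With the CtBP1 knockdown label it overlapped the controls (0.19 ± 0.28, and 0.38 and -0.01 by control). MMP14, a membrane matrix metalloproteinase, was dim, at 2.5 or less on every array. It was below both controls in each comparison, by -0.22 ± 0.11 on the arrays labelled CtBP1 knockdown and -0.33 ± 0.12 for CtBP2 knockdown. LGALS3, which KLF3 represses in the mouse, had 4.54, 4.65 and 5.05 with the CtBP1 knockdown label, 4.87 on both CtBP2 knockdown arrays, and 5.42 and 4.94 with scramble, so it was not higher with either label. MMP9, a second matrix metalloproteinase, was dim and overlapped the controls (-0.31 ± 0.15 and -0.20 ± 0.17). It was -0.11 and -0.50 by control in the first comparison, and 0 and -0.40 in the second.

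Of 14 genes listed for KLF4 and KLF5, 13 were measured and none passed. For CtBP2 knockdown 4 were above and 2 below both controls, against 19.3% and 21.7% of all genes, with a median difference of -0.12. For the arrays labelled CtBP1 knockdown 0 were above and 3 below, against 6.76% and 7.59% of all genes, with a median of -0.1. The squamous differentiation genes SPRR1A and SPRR2A were below both controls in each comparison, by -0.84 ± 0.43 and -0.75 ± 0.36 for CtBP2 knockdown. These were -0.15 and -0.16 without scramble control 1, and -1.54 and -1.34 without scramble control 2. SPRR2A was dim, at 2.94 or less on every array. The mitotic kinase gene CDK1 differed by 2.1 ± 0.88 for CtBP2 knockdown and by 0.62 and 3.58 by control. Its signal was 3.82 on scramble control 1, against 6.57 to 7.66 on the other 6 arrays.

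Of 13 genes listed for KLF6 and KLF7, 12 were measured and none passed. For CtBP2 knockdown 4 were above and 2 below both controls, against 19.3% and 21.7% of all genes, with a median difference of -0.05. For the arrays labelled CtBP1 knockdown 2 were above and 2 below, against 6.76% and 7.59% of all genes, with a median of -0.11. PLAU, the urokinase gene, was above both controls in each comparison. Its signals were 6.42, 7.73 and 6.79 with the CtBP1 knockdown label, 6.86 and 6.68 with CtBP2 knockdown, and 6.05 and 5.40 with scramble. Its differences were 1.25 ± 0.41 and 1.04 ± 0.45. TGFB1 was above both controls in each as well, by 0.48 ± 0.18 and 0.49 ± 0.20, and these values held without scramble control 1 (0.43 in both). ENG, a TGF-beta co-receptor, was below both, by -0.25 ± 0.12 and -0.26 ± 0.14. It was -0.13 and -0.14 without scramble control 1, and -0.36 and -0.37 without scramble control 2. ENG signals lay between 2.95 and 3.40, near the medians of the arrays (3.18 to 3.29). The cell cycle inhibitor gene CDKN1B differed by 0.96 ± 0.42 for CtBP2 knockdown, and by 0.36 and 1.56 by control. ADIPOQ, the adiponectin gene of fat cells, was dim, at 2.54 or less on every array, and differed by -0.37 ± 0.18 for CtBP2 knockdown (-0.23 and -0.51 by control).

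The 11 genes listed for KLF9, KLF10 and KLF11 were all measured. For CtBP2 knockdown 5 were above and 2 below both controls, against 19.3% and 21.7% of all genes, with a median difference of 0.36. For the arrays labelled CtBP1 knockdown 2 were above and 2 below, against 6.76% and 7.59% of all genes, with a median of -0.03. None passed. BAX, which promotes cell death, had signals of 5.0, 5.58 and 5.26 with the CtBP1 knockdown label, 5.55 and 5.33 with CtBP2 knockdown, and 4.46 and 4.84 with scramble, which gave differences of 0.63 ± 0.22 and 0.79 ± 0.24. SMAD7, an inhibitor of TGF-beta signalling that KLF10 and KLF11 repress, was above both controls in each, by 0.37 ± 0.16 and 0.48 ± 0.18, and by 0.22 and 0.33 without scramble control 1 and 0.52 and 0.63 without scramble control 2. SMAD2, which KLF10 is reported to activate, had 6.57 and 6.70 on CtBP2 knockdown arrays, against 6.16 and 6.37 on scramble arrays (0.37 ± 0.14). On the arrays labelled CtBP1 knockdown it had 6.17, 6.10 and 6.0 and overlapped the controls. MAOB, a KLF11 target, was dim, at 2.34 or less on every array. It was below both controls in each, by -0.43 ± 0.17 and -0.40 ± 0.19. These were -0.18 and -0.14 without scramble control 1, and -0.69 and -0.65 without scramble control 2.

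KLF10 and KLF11 are induced by TGF-beta, and 11 of 12 listed genes of that pathway were measured. For CtBP2 knockdown 6 were above both controls and 1 below, against 19.3% and 21.7% of all genes, with a median difference of 0.37. For the arrays labelled CtBP1 knockdown 3 were above and 3 below, against 6.76% and 7.59% of all genes, with a median of 0.03. None passed. TGFBI, which encodes a TGF-beta-inducible matrix protein, had 8.05 and 7.39 on CtBP2 knockdown arrays, against 3.17 and 4.0 on scramble arrays (limma, adjusted p = 0.16). On the arrays labelled CtBP1 knockdown TGFBI had 5.63, 4.88 and 5.81, above both controls as well. That difference was 1.86 ± 0.39 (SE; limma, adjusted p = 0.734). SMAD4, the common partner of the receptor-activated SMAD proteins, was the 1 below, at -0.38 ± 0.13 for CtBP2 knockdown, and it differed by -0.24 ± 0.12 for the arrays labelled CtBP1 knockdown. Both KLF10 (0.32) and KLF11 (0.32) were modest beside TGFBI (4.14), each value being a log2 difference of CtBP2 knockdown from scramble. SMAD2 and SMAD7 are also on the list for KLF9, KLF10 and KLF11, and TGFB1 on that for KLF6 and KLF7. The counts of these lists are thus not separate readings.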

How the data were processed

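The authors' deposited values are log2 signals, 1 for each of 33297 transcript clusters and 7 arrays, and the submitters' processing notes name RMA and Affymetrix Expression Console for them. No version or genome build is given in the sources used here. The platform annotation gives 1 symbol for 19181 clusters, which were named through Entrez identifiers with RefSeq symbols, leaving 17958 genes. Array data carry no read depth, and the number of arrays limits the precision.

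Group means were fitted over all 7 arrays with limma 3.58.1 in R 4.3.3 (lmFit, eBayes), so that groups share 1 spread. P-values are two-sided, adjusted by Benjamini-Hochberg over all genes, with a threshold of 0.05. The fit was tested on simulated data before use. At the threshold it recovered 31% to 44% of simulated log2 differences of 1, and 63% to 75% of those of 2. A gene that did not pass is thus not shown to be unchanged. Each simulated gene had the same noise on all arrays, without an outlying control. Promoter sequences came from RefSeq. Figures were drawn with matplotlib 3.10.9.

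The members, the gene lists and the alternatives were chosen with earlier results of these data known. Named genes were the members, CTBP1 and CTBP2, the 3 genes most correlated with each of KLF7, KLF8 and KLF12, and, from each list, genes whose groups did not overlap in both comparisons with scramble plus up to 4 with the smallest unadjusted p. KLF14 and the marker genes were named outside this rule. Alternatives were renewed quantile normalization, median centring, a filter on dim genes, the mean of several clusters, a variance trend, fits on the groups compared alone, the replicate number as a block, and each array left out. A fit without the 7180 genes (40%) that have an identical value on several arrays was added after the ties were seen.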

Additional observations from a re-analysis of the deposited data

How the results depend on the processing

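Under all alternatives tried, no member passed the threshold except KLF7 for CtBP2 knockdown against scramble without scramble control 2 (log2 difference -1.228, adjusted p = 0.0181). With each array left out in turn, the members called there numbered 0 to 1, and the KLF7 difference lay between -1.235 and -1.201. Over the same fits all genes called numbered 0 to 3952 for CtBP2 knockdown and 0 to 3262 on the arrays labelled CtBP1 knockdown relative to scramble, the highest counts without scramble control 2. For CtBP2 knockdown 0 genes were called after renewed quantile normalization, in the fit on only the groups compared, and with the replicate block, against 1 in the fit reported. Members with groups that did not overlap on the arrays labelled CtBP1 knockdown relative to scramble numbered 1 after the filter on dim genes, which removes KLF4, KLF8 and KLF9, and 2 to 8 with an array left out. The share of all genes was 14.8% after that filter and 71.4% without scramble control 2, where 8 members did not overlap.

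Small differences changed sign. On the arrays labelled CtBP1 knockdown, relative to scramble, KLF12 was -0.129 after renewed quantile normalization, -0.031 after median centring and -0.021 with the replicate block, and KLF4 was 0.062 after renewed quantile normalization. With an array left out, KLF12 ranged from -0.355 to 0.367, KLF4 from -0.178 to 0.091, KLF9 from -0.082 to 0.387 and KLF10 from -0.197 to 0.016. KLF9 ranged from -0.073 to 0.395 for CtBP2 knockdown. Between the knockdowns, KLF6 was 0.009 after renewed quantile normalization, KLF9 0.012 after median centring and KLF11 -0.122 with the replicate block. With an array left out there, KLF6 ranged from -0.235 to 0.07, KLF8 from -0.008 to 0.453, KLF9 from -0.015 to 0.003 and KLF11 from -0.122 to 0.214. The cause was not tested.

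The replicate numbers name clones and pair nothing in the labels. Deviations of arrays with the same number correlated at -0.35 to 0.10, and with the replicate block KLF7 had an adjusted p of 0.554 for CtBP2 knockdown. Without the tied genes (KLF4 and KLF9 among them) the KLF7 adjusted p was 0.178.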
